A study of Mus musculus with 10 samples.

Results

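The intergenic H3K27me3 peaks are 2440 of the 11345 H3K27me3 peaks called in WT cells, and of the 70826 peaks of any mark in 8 lists. They were selected on their own WT call, their length and their position. A peak belonged to the set when it was shorter than 10000 bp, lay more than 2.5 kb from every transcription start site (TSS) of a protein-coding gene and touched no protein-coding gene body in GENCODE M1 on the mouse mm9 genome. Of the 11345 peaks, 10932 were short enough, 3788 of these were also far enough from a TSS, and 2440 of these were also outside genes. The cells were mCherry+ mesoderm sorted on day 4 from embryoid bodies (EBs), the clusters that mouse embryonic stem (ES) cells form as they differentiate. WT cells carried *Scl:mCherry*, with mCherry inserted in 1 *Scl* allele of J1 ES cells. Delta cells carried *Scl* Δ/Δ:mCherry, made from that line by a homozygous deletion of the bHLH domain, the part of SCL that binds DNA and partner proteins, and were grown from single sorted clones. Both groups were therefore gated on activity of the *Scl* locus, and a change in the kind of cells passing the gate cannot be told apart from a change of chromatin within a cell. H3K27me3, H2AK119ub, H3K4me3 and H3K27ac were each profiled by ChIP-seq in 1 library per genotype, so no difference between WT and Delta has a replicate check and no test was made. The strain label of the libraries differed only in a number that counted up from C57Bl/6 X Sv129.

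Mesoderm needs the transcription factor SCL (TAL1) to make blood. H3K27me3 is written by Polycomb repressive complex PRC2 and H2AK119ub by PRC1, and both are known for keeping developmental regulators silent. PRC2 is drawn to CpG islands, stretches rich in unmethylated CG dinucleotides that most often lie at promoters. Where such an island also carries H3K4me3, the mark of active or poised start sites, the region is called bivalent. H3K27ac marks active promoters and enhancers and sits on the same lysine as H3K27me3, so that 1 histone tail cannot carry both. Polycomb marks far from coding genes can lie at start sites of non-coding RNAs, at distal regulatory elements or at CpG islands with no annotated gene.

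Sequences of 5 intergenic peaks are printed to show how widely their CG content ranged. Each is the 200-base window with the most CG dinucleotides in its peak, on the plus strand of mm9, with every CG in capitals. The window of the longest peak, chr15:85501193-85501392, lay 5′ of *Ppara*, held 39 CG and fell inside the H3K4me3 peaks of WT and Delta.
*Ppara*: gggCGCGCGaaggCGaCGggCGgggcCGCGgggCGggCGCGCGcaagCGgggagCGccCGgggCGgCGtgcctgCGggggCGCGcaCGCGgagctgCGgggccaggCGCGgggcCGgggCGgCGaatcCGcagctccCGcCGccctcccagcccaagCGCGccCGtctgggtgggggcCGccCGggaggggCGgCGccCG
The window of the peak with the highest fold enrichment, chr15:102577319-102577518, lay 5′ of *Calcoco1*, held 26 CG and also fell inside the H3K4me3 peaks of both genotypes.
*Calcoco1*: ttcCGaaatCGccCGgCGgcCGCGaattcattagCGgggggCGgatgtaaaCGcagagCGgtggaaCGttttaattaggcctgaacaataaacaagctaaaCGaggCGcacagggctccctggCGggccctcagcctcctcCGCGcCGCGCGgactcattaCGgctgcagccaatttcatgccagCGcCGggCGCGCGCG
The window of the longest peak that had no Delta counterpart, chr5:38285666-38285865, lay 5′ of *Msx1* and held 7 CG, and its first bases fell in the last 108 bp of a WT H3K4me3 peak.
*Msx1*: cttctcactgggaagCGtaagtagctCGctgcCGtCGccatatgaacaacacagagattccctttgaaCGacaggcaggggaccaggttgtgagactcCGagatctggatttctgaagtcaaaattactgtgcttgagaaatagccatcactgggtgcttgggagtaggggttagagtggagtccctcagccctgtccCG
The window of the peak whose CG density was the median, chr12:81867603-81867802, lay 5′ of *Gm1568* and held 6 CG.
*Gm1568*: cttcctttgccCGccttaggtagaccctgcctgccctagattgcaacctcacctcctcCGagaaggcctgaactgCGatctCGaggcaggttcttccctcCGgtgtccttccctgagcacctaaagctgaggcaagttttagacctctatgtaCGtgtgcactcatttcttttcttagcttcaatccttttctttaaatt
The last window comes from the longest intergenic peak with H3K27ac in WT, which was chosen after its values were seen. It is chr19:36422804-36423003, 5′ of *Pcgf5*, and held 41 CG.
*Pcgf5*: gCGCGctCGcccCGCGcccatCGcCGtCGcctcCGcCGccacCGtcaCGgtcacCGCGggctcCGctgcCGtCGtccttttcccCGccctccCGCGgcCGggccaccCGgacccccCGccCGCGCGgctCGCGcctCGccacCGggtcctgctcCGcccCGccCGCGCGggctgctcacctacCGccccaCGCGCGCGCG

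The 2440 peaks summed to 3.89 Mb. That was 12.8% of the length covered by H3K27me3 in WT, and 0.257% of the 1517 Mb of sequence that is outside coding genes and over 2.5 kb from a coding TSS, called the intergenic territory here. Their lengths ran from 219 to 9912 bp with a median of 986 bp, and 1 peak in 10 was longer than 3691 bp. Fold enrichment is the ratio of ChIP to local background that MACS2 gives for a peak, and its median was 3.43 over a range of 1.72 to 9.69. The 1348 peaks inside genes, with the same limits on length and TSS distance, had a median length of 1104 bp and a median fold enrichment of 3.48. The 7144 peaks of under 10000 bp at promoters, here within 2.5 kb of a coding TSS, had medians of 1386 bp and 3.85, and the 413 peaks of 10000 bp or more had medians of 15105 bp and 7.98. The intergenic peaks thus had the lowest medians of the 4 groups for length and for fold enrichment, close to those of peaks inside genes. The length limit fell within a continuous range, since the longest intergenic peaks measured 9912, 9790 and 9759 bp and the shortest intergenic peaks left out measured 10032, 10078 and 10183 bp. Likewise the intergenic peaks nearest to a TSS lay 2505, 2507 and 2515 bp away, and the nearest left out lay 2485, 2485 and 2467 bp away.

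**Figure D1:**
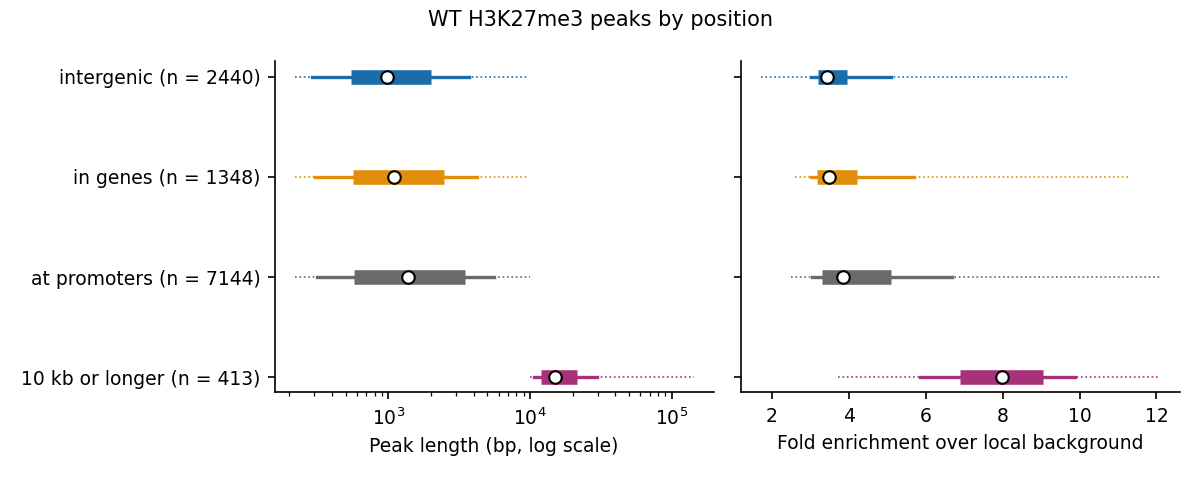
Peak length in bp on a log scale (left) and fold enrichment over local background (right) of the WT H3K27me3 peaks, by position. White points are medians, thick bars the middle 50%, thin bars the 10th to 90th percentile and dotted lines the full range. The intergenic peaks, median 986 bp and 3.43, overlap most of the range of the promoter peaks.

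The 5 longest peaks were 9684 to 9912 bp long, and each overlapped a Delta H3K27me3 peak. The longest, chr15:85494917-85504828, lay 61166 bp 5′ of *Ppara*, which encodes a nuclear receptor of lipid metabolism. Its fold enrichment was 8.29 in WT, and 2 Delta H3K27me3 peaks of up to 10444 bp with a highest fold enrichment of 9.68 covered 8850 bp of it. It carried 1795 bp of H3K4me3 in WT and 1529 bp in Delta, 2755 bp of H2AK119ub in WT and 1311 bp in Delta, and no H3K27ac in either list. The next, chr17:32234640-32244429, lay 59396 bp 3′ of the TSS of *Notch3*, a Notch receptor, with a fold enrichment of 4.78 in WT and up to 5.88 in Delta. It touched H3K4me3 in both lists and H2AK119ub only in the WT list. The third, chr2:172551880-172561638, lay 175389 bp 3′ of *Tcfap2c*, an AP-2 transcription factor of early ectoderm and germ cells, and lay wholly inside a Delta peak of 13020 bp. The fourth, chr2:19348266-19358018, lay 9272 bp 5′ of *Ptf1a*, a regulator of pancreas and cerebellum. It was the one among the 5 with no H3K4me3 in either list, while H2AK119ub covered 2478 bp of it in WT and 598 bp in Delta. The fifth, chr7:20051617-20061300, lay 7774 bp 5′ of *Mark4*, a microtubule-affinity kinase, and had H3K4me3 in both lists and 861 bp of H2AK119ub in WT alone.

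The 5 peaks with the highest fold enrichment had values of 8.58 to 9.69 in WT and of 7.98 to 9.84 in Delta, so their ranges overlapped. All 5 carried H3K4me3 in both lists and H2AK119ub in WT, and none carried H3K27ac. The first of them, chr15:102573372-102582405, lay 20763 bp 5′ of *Calcoco1*. It had a fold enrichment of 9.69 in WT, and lay within a Delta peak of 16876 bp with a fold enrichment of 8.53. H2AK119ub covered 3946 bp of it in WT and 262 bp in Delta. The second, chr17:48229805-48237579, was 3223 bp from the TSS of *1700067P10Rik*, with a fold enrichment of 9.31 in WT and 9.84 in Delta. The third, chr14:62301615-62310432, was 75296 bp from *Kcnrg*, which encodes a regulator of potassium channels. It was the one of the 5 with more H2AK119ub in Delta, 1882 bp, than in WT, 944 bp. The fourth, chr5:112654894-112660502, lay over the long non-coding RNA gene *Miat*, and the fifth, chr7:120096603-120100393, over *Rassf10*, which GENCODE M1 does not class as coding. These last 2 had H2AK119ub in WT alone.

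The intergenic peaks lay close to coding genes for their territory. Distance was taken from the nearest edge of a peak to the nearest coding TSS, and its median was 21686 bp. Points placed every 1 kb through the intergenic territory had a median of 106480 bp. Within 25 kb of a TSS lay 1320 of the 2440 peaks, 54.1% (95% Wilson interval 52.1 to 56.1, as for all shares below, covering counting error only), and 21.3% of the points. Over 100 kb away lay 340 peaks. The rule set the lower limit of 2.5 kb, so nothing is read from the absence of closer peaks. The peaks were 5′ of their nearest TSS in 1588 cases, 65.1%, against 58.4% of the points. The 3 farthest peaks were 1577109 bp from *G6pd2*, 1449142 bp from *4930555F03Rik* and 1082178 bp from *Igsf11*. Of these, the 621-bp peak near *G6pd2* had a Delta counterpart but no other mark. The 7528-bp peak near *4930555F03Rik* had a Delta counterpart and H3K4me3 in both lists. The 900-bp peak near *Igsf11* had H3K4me3 in both lists and no Delta counterpart.

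**Figure D2:**
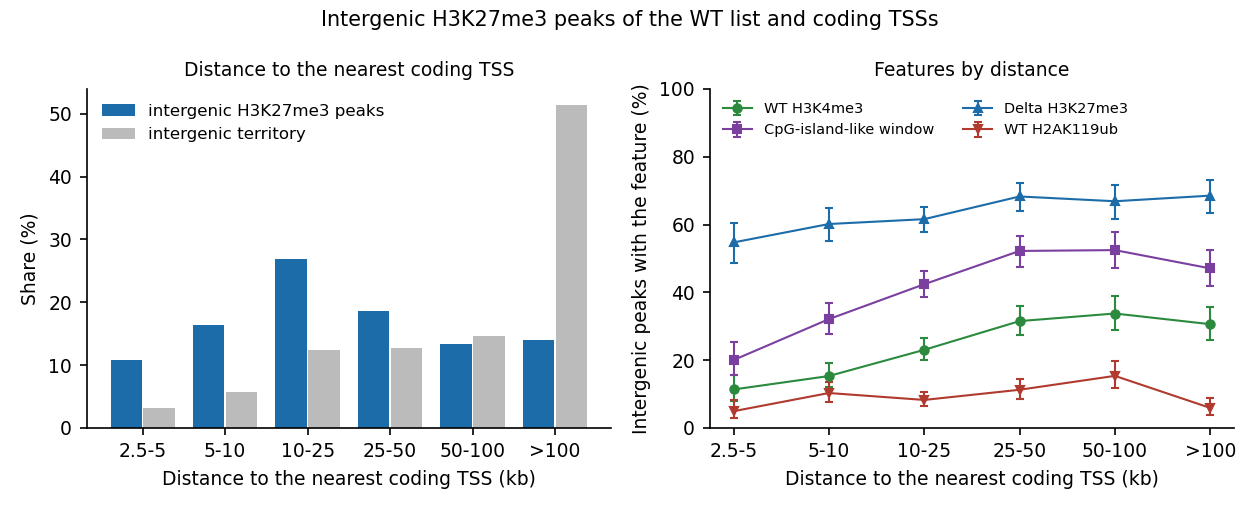
Left, share of intergenic H3K27me3 peaks and of points every 1 kb of the intergenic territory by distance to the nearest coding TSS in kb. Right, share of the intergenic peaks in each distance bin with the feature named, with 95% Wilson intervals as bars. Of the territory 48.6% and of the peaks 86.1% lay within 100 kb, and the share with H3K4me3 rose from 11.3% to 33.7% between the nearest bin and the bin of 50 to 100 kb.

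The nearest coding gene often carried H3K27me3 itself. For 1466 peaks, 60.1% (58.1 to 62.0), the nearest gene had WT H3K27me3 within 2.5 kb of one of its TSSs, against 40.4% of the points in the territory and 34.8% of the 22359 coding genes. The share was 69.8% for peaks inside genes. It was 87.7% for all WT H3K27me3 peaks, which include promoter peaks that mark their own gene by definition. Of promoter peaks 25.9% also overlapped WT H3K27ac, so a gene marked in this way can carry active marks too. For H2AK119ub at the gene the share was 30.6% of peaks and 7.90% of points, for H3K4me3 75.3% and 59.3%, and for H3K27ac 18.4% and 14.3%. For these 3 marks in turn, peaks inside genes had 41.3%, 75.1% and 7.64%, and all WT H3K27me3 peaks 28.25%, 86.9% and 23.3%. The share with a marked gene fell with distance, from 73.6% (68.0 to 78.5) of the 265 peaks at 2.5 to 5 kb to 50.9% (45.6 to 56.2) of the 340 peaks over 100 kb away. The points lay farther from a TSS, a median of 106480 against 21686 bp. They were not matched to the peaks for distance, so these contrasts with the points mix distance with marking. The peaks also lay close to other H3K27me3 peaks. The nearest was within 5 kb for 1078 of them, 44.2%, and it was another intergenic peak for 1195, a promoter peak for 992, a peak of 10000 bp or more for 147 and a peak inside a gene for 106. A neighbour within 5 kb was found for 48.7% of peaks inside genes, 49.6% of peaks of 10000 bp or more and 19.6% of promoter peaks. Among the 1078 peaks with a neighbour within 5 kb, 74.9% (72.2 to 77.4) had a marked nearest gene, against 21.3% (17.4 to 25.9) of the 352 peaks with no neighbour within 100 kb. A gene was marked by a peak of this same list, which also counted as a neighbour, so this contrast is largely built in. The isolated peaks had the larger share with H3K4me3, 41.5% (36.4 to 46.7) against 14.5% (12.5 to 16.7). Since MACS2 leaves gaps of 878 bp or more between peaks of this list, neighbouring peaks can be pieces of 1 broad region.

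At least 1 intergenic peak was nearest to 1654 of the 22359 coding genes, 7.4% of them. Of these genes 1187 had 1 peak, 301 had 2, 92 had 3 and 37 had 4. The most were 9 peaks at 3 genes and 10 at 1 gene. The gene with 10 was *Lhx5*, which encodes a LIM homeobox factor of the developing forebrain. Its peaks lay 11284 to 147763 bp from its TSS, measured 247 to 6932 bp with fold enrichments of 3.01 to 5.43, and 9 of them had a Delta counterpart. None had H3K4me3, and 2 had H2AK119ub. *Msx1*, a homeobox gene of limb and craniofacial mesenchyme, had 9 peaks of 243 to 5172 bp, of which 4 had a Delta counterpart. *Smug1*, which encodes a DNA glycosylase and adjoins the Hoxc cluster, had 9, of which 6 had a Delta counterpart, and *Med13l*, a Mediator subunit gene, had 9, of which 5 did. *Tcfap2c* had 8, of which 3 had a Delta counterpart, and *Arap3*, a GTPase-activating protein gene next to the protocadherin clusters, had 8, of which 6 did. *Calcoco1* and *Lhx1*, the latter a LIM homeobox gene of intermediate mesoderm, had 7 each with 6 counterparts each. Of these 8 genes, 6 had H3K27me3 at a TSS in both genotypes, the exceptions being *Arap3* and *Calcoco1*.

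Lists of lineage regulators differed in how many of their genes had an intergenic peak nearest to them. Over all coding genes that share was 7.4%, and 34.8% had H3K27me3 at a TSS. A peak was nearest to 14 of 21 paraxial and intermediate mesoderm regulators, 66.7%, with 39 peaks in all, and *Lhx1*, *Irx3* and *Pax2* had the most. It was so for 8 of 16 cardiac regulators with 20 peaks, led by *Tbx5* with 6 and *Tbx3* with 5, and for 16 of 32 neural regulators with 34 peaks, led by *Lhx5*. Among 13 endoderm regulators 4 had a peak, *Foxa2* with 6. Among 25 blood and endothelial regulators 4 had a peak, with 6 peaks in all, 2 each at *Gata3* and *Sox17* and 1 at *Gata2*, and among 11 pluripotency genes *Klf4* had 3 and *Sox2* had 1. All of these lists except those of blood, pluripotency and paraxial mesoderm had H3K27me3 at a TSS in 92.3% or more of their genes, and those 3 had it in 72.7% to 76.2%. Genes with long intergenic surroundings can gather more peaks, so the number per Mb of territory nearest to the list was also taken. It was 10.5 for the paraxial list, 6.19 for the neural, 5.20 for the endoderm, 4.96 for the cardiac, 2.02 for the pluripotency and 1.75 for the blood list, against 1.61 for all coding genes. No test was made on any list.

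Gene families of developmental control were counted in the same way. Over all coding genes 7.4% had a peak, at 1.61 per Mb, and 34.8% were marked with H3K27me3 at a TSS. A peak was nearest to 6 of 9 Pax genes, 4 of 6 Iroquois genes, 11 of 17 T-box genes, 6 of 12 LIM homeobox genes and 6 of 14 POU genes. It was nearest to 14 of 43 forkhead, 7 of 19 Sox and 4 of 14 Nkx genes. In each of these families 74.4% or more of the genes were marked at a TSS. The 40 coding entries with a Hox symbol in GENCODE M1, all with H3K27me3 at a TSS, had 14 peaks nearest to 6 of them. With 0.365 Mb of nearest territory these came to 38.4 per Mb. Among secreted signals, the peaks lay nearest to 7 of 19 Wnt, 4 of 22 FGF and 4 of 20 BMP and GDF genes. *Bmp4*, a signal that patterns mesoderm, had 1 peak, chr14:47016243-47019086, of 2844 bp and a fold enrichment of 8.21, 5899 bp 5′ of its TSS, with a Delta counterpart over its whole length. H3K4me3 covered 568 bp of it in WT and 791 bp in Delta, and H2AK119ub 365 and 385 bp. *Bmp7* had 6 peaks, all with a Delta counterpart, whereas *Fgf18* had 3, none with one. Of 1113 olfactory receptor genes 9 had a peak and of 328 vomeronasal receptor genes 5 had one, at 0.438 and 0.484 peaks per Mb. Protocadherins, with 31 of 36 genes marked at a TSS, had a peak at 11.1% of their genes and 0.305 per Mb. Of 76 cytosolic ribosomal protein genes 66 were marked at a TSS and 8 had a peak, 10.5%, at 2.46 per Mb. *Rpl11*, with 2 peaks, and *Rpl6* and *Rpl38*, with 1 each, also had H3K4me3 and H3K27ac at a TSS in both genotypes. Marked at a TSS thus means only that an H3K27me3 peak was called there, also where active marks were called.

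Many of the peaks formed runs. When peaks of the set up to 25 kb apart were joined, 1327 stood alone and 1113 fell into 419 runs, of which 33 held at least 5 peaks. The largest run held 11 peaks over 67242 bp between *Hoxc4* and *Smug1*, chr15:102912338-102979579, and 8 of them had a Delta counterpart. A run of 8 lay 5′ of *Msx1* over 53287 bp, chr5:38256296-38309582, and 3 of the 8 had a counterpart. Another run of 8, near *Arap3*, had 6. Runs of 7 lay near *Lhx1* with 6 counterparts, between *Trim27* and *Gpx5* with 7, and near *Tifab* and *Neurog1* with 6. Another run of 7, near the paternally expressed genes *Mkrn3* and *Peg12*, had 4.

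The intergenic peaks were rich in CG for their surroundings but poorer than promoter peaks. They held 21.3 CG per kb in all, against 7.12 in the intergenic territory, and 49.4% GC against 40.9%. A CpG-island-like window, 200 bases with at least 50% GC and an observed over expected CpG ratio of at least 0.6, was present in 1027 peaks, 42.1% (40.1 to 44.1). It was present in 74.6% of all WT H3K27me3 peaks, in 49.5% (46.8 to 52.1) of those inside genes and in 89.0% (88.3 to 89.7) of those at promoters. A longer peak offers more windows, so peaks were also compared at like lengths. Under 500 bp the share was 14.1% (11.5 to 17.3) for intergenic and 80.8% (78.8 to 82.7) for promoter peaks, and at 4 to 10 kb it was 89.0% (84.1 to 92.6) and 99.4% (98.8 to 99.7). Read the other way, the chance that a 1-kb bin of the territory was touched by an intergenic peak rose with its CG number. It was 0.0879% of the 558441 bins with under 5 CG, 2.77% of the 46971 bins with 20 to 39 CG and 27.8% (24.9 to 31.0) of the 830 bins with 60 or more. The Delta peaks that met the same rule gave 0.0967%, 2.71% and 25.1% (22.2 to 28.1). WT H3K4me3 climbed more steeply over the same bins, from 0.0100% to 52.3% (48.9 to 55.7).

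**Figure D3:**
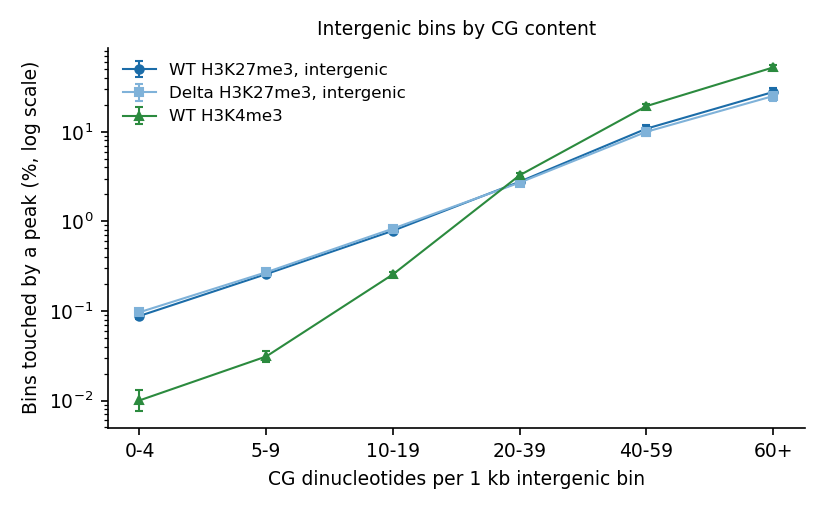
Share of 1-kb bins of the intergenic territory touched by an intergenic H3K27me3 peak of the WT list, by one of the Delta list or by a WT H3K4me3 peak, on a log axis, against the number of CG dinucleotides in the bin. Bars are 95% Wilson intervals. The WT and Delta H3K27me3 lines run together from about 0.1% to over 25%.

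Most intergenic peaks carried none of the other marks in WT. This held for 1742 of the 2440, 71.4%. An overlap of 1 bp was enough to count. H3K4me3 overlapped 599, 24.5% (22.9 to 26.3), a share that was 5.61% when at least 50% of the peak had to be covered and 41.6% when every peak needed a −log10 q of at least 3. With an overlap of 1 bp it was 65.7% of all WT H3K27me3 peaks, 24.1% (21.9 to 26.5) of those inside genes and 85.8% (85.0 to 86.6) of those at promoters. H2AK119ub overlapped 229, 9.39% (8.29 to 10.6), compared with 19.4% of all, 19.1% (17.1 to 21.2) inside genes and 18.7% (17.8 to 19.6) at promoters. H3K27ac overlapped 38, 1.56% (1.14 to 2.13), compared with 16.7% of all, 0.297% (0.115 to 0.761) inside genes and 25.9% (24.9 to 26.9) at promoters. With 50% coverage H2AK119ub was on 1.31% and H3K27ac on 0.902%, and with the −log10 q limit on 0.224% and 0.785%. The 3 marks were combined in few ways. H3K4me3 alone was on 431, H2AK119ub alone on 99, both on 130, and H3K4me3 with H3K27ac on 38. No peak had H3K27ac without H3K4me3 and none had H3K27ac together with H2AK119ub. Other WT H3K27me3 peaks were much the same. H3K4me3 was on all 1849 promoter peaks with H3K27ac and on all 4 such peaks inside genes. H2AK119ub was on 40 of those 1849 and 0 of those 4. H2AK119ub was called with low confidence throughout, since 99 of its 4922 WT peaks had a −log10 q of at least 3.

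**Figure D4:**
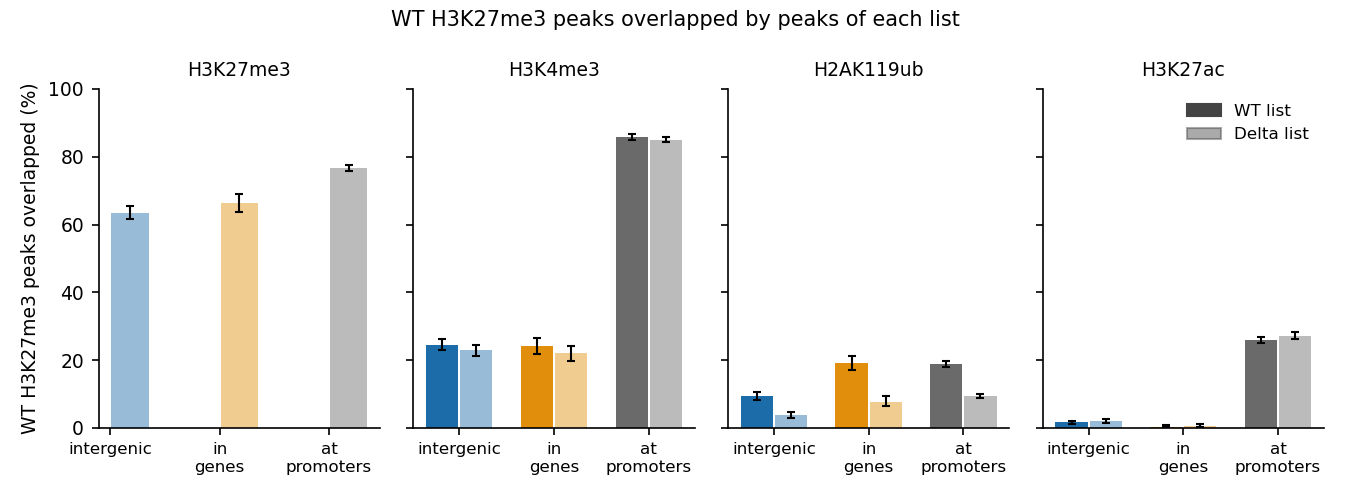
Share of WT H3K27me3 peaks of under 10000 bp overlapped by at least 1 bp of a peak of each list, in %, for intergenic peaks, peaks inside genes and peaks at promoters. Dark bars are the WT lists, pale bars the Delta lists, and error bars 95% Wilson intervals. The intergenic peaks resembled peaks inside genes in H3K4me3 (24.5% and 24.1% in WT) and lay far below promoter peaks (85.8%).

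The combinations differed in length, fold enrichment or CG content, though some shared values. The 130 peaks with H3K4me3 and H2AK119ub had a median length of 4245 bp, a median fold enrichment of 5.62 and a CpG-island-like window in 97.7% (93.4 to 99.2). The 431 with H3K4me3 alone had medians of 2065 bp and 4.13, and 88.2% (84.8 to 90.9) held such a window. The 99 with H2AK119ub alone had medians of 2242 bp and 3.74 and a window in 54.5% (44.8 to 64.0). The 1742 without another mark had medians of 806 bp and 3.33 and a window in 24.6% (22.7 to 26.7). The 38 with H3K4me3 and H3K27ac were short, with a median of 785 bp and a median fold enrichment of 3.39, near those of the unmarked peaks. A window was in 97.4% (86.5 to 99.5) of them. Their median observed over expected CpG ratio was 0.798, against 0.220 in the unmarked peaks. The share with H3K4me3 rose with the length of the peak, from 8.32% (6.29 to 10.9) under 500 bp to 70.0% (63.5 to 75.8) at 4 to 10 kb, while promoter peaks stayed between 80.5% and 94.4%. H2AK119ub rose likewise from 1.45% (0.735 to 2.83) to 47.1% (40.5 to 53.9). A longer peak also has more room for an overlap.

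The share of peaks with H3K4me3 was lowest close to coding genes and no higher beyond 100 kb than at 50 to 100 kb. It was 11.3% (8.05 to 15.7) at 2.5 to 5 kb, 23.0% of 656 peaks at 10 to 25 kb and 33.7% of 326 peaks at 50 to 100 kb, and 30.6% (25.9 to 35.7) of the 340 peaks over 100 kb away. The CpG-island-like share went over the same bins from 53 of 265 peaks to 42.4% (38.7 to 46.2) and 52.5% (47.0 to 57.8), with 47.1% (41.8 to 52.4) over 100 kb away, and the median length from 759 to 988, 1107 and 1061 bp. H3K27ac was on none of the 340 peaks over 100 kb away, which allows a share of up to 1.12% by the Wilson interval.

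Peaks with H3K4me3 more often lay near a non-coding start site, by their intervals. An annotated non-coding TSS lay within 2.5 kb of 287 intergenic peaks, 11.8% (10.5 to 13.1), compared with 12.1% of all WT H3K27me3 peaks. The share was 6.38% (5.20 to 7.81) for peaks inside genes and 12.04% (11.3 to 12.8) for those at promoters. Such a TSS lay near 148 of the 599 intergenic peaks with H3K4me3, 24.7% (21.4 to 28.3), and near 139 of those without, 7.55% (6.43 to 8.85). A non-coding gene was overlapped by 318 intergenic peaks, 13.03% (11.8 to 14.4), compared with 10.2% of all WT H3K27me3 peaks. The share was 6.08% for peaks inside genes and 8.68% for those at promoters. Among the 318 peaks, 141 overlapped lincRNA genes, 110 processed transcripts and 60 pseudogenes. Of the 305 symbols under them, 181 were found in RefSeq (GRCm38.p6, used for names alone), and RefSeq classed 23 of those as protein-coding. These 23 lay under 26 peaks, and the annotation used decides their place in the set. They include *Ascl4*, *Rassf10*, *Kctd12*, *Cebpd* and *Frat1*, whose peaks of 1476 to 3791 bp all had H3K4me3 and a Delta counterpart.

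A group of 14 peaks, chosen after their values were seen, lay over 16 microRNA genes, of which 9 matched the RefSeq microRNA table. Their median length was 2510 bp and their median fold enrichment 4.995. H3K4me3 was on 10 of them in WT, H2AK119ub on 5 and H3K27ac on 1, and 13 had a Delta counterpart. The mature microRNAs below, from RefSeq, show what 6 of these regions encode and which of them share a seed, with the seed, bases 2 to 8, in capitals.
miR-137-3p: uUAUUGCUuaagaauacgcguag
miR-9-5p: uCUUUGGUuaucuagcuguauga
miR-203-3p: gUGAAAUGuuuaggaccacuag
miR-193b-3p: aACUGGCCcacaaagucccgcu
miR-193a-3p: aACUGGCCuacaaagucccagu
let-7i-5p: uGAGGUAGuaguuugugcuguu
The peak over *Mir137*, a regulator of neural differentiation, was chr3:118132070-118140156. It had a fold enrichment of 6.25 in WT and 7.33 in Delta, with H3K4me3 in both lists. The peak over *Mir9-2*, which encodes the neural miR-9, was chr13:83875380-83879927, with 4.99 in WT and 4.78 in Delta, and with H3K4me3 in the WT list only. The peak over *Mir203*, whose product acts in skin, was chr12:113366992-113371216, with 6.75 in WT and 7.48 in Delta, and with H3K4me3 and H2AK119ub in both lists. *Mir193b* and *Mir193* (Mir193a in RefSeq) lie on different chromosomes and share the seed ACUGGCC. Their peaks, chr16:13448068-13450656 and chr11:79523375-79525805, both had H3K4me3 in both lists and H2AK119ub in WT alone. The peak over *Mirlet7i*, chr10:122422390-122423323, was 934 bp long and was the one with H3K27ac. H3K4me3 and H3K27ac each covered all of it in WT and in Delta, and it was the one of the 14 without a Delta H3K27me3 counterpart.

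The 38 regions with H3K27ac are shown by their 5 longest, chosen after their values were seen. The longest of the 38, chr19:36420575-36425161, lay 28396 bp 5′ of *Pcgf5*, a PRC1 subunit gene, with a fold enrichment of 3.61 for H3K27me3 in WT and 3.79 in Delta. H3K4me3 there had 9.38 in WT and 9.09 in Delta, and H3K27ac 3.39 and 4.98. The second, near *Ttc17*, and the third, near *Gm17359*, also had Delta counterparts. The fourth, chr3:123210300-123211873 near *Prss12*, had none, and was wholly covered by H3K4me3 in both lists. The fifth, chr19:5800585-5802101, lay over *Malat1*, an abundant nuclear long non-coding RNA, inside an H3K4me3 peak of 7019 bp in WT. Within a library of many cells, overlap of these marks does not show that they were on the same allele or in the same cell.

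The targeted gene was looked at before WT was set against Delta. *Tal1* (*Scl*), chr4:114729031-114744360 on the plus strand, had 2 H3K27me3 peaks in WT and 3 in Delta within its body and 2.5 kb around it, summing to 3178 and 5766 bp. H3K4me3 summed to 9615 and 6458 bp, 2 H3K27ac peaks were listed in WT and none in Delta, and 1 H2AK119ub peak in WT and none in Delta. Peak lists cannot show the deletion itself.

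A Delta H3K27me3 peak overlapped 1550 of the 2440 intergenic peaks, 63.5% (61.6 to 65.4), compared with 73.5% of all WT H3K27me3 peaks, 66.4% (63.8 to 68.9) of those inside genes and 76.7% (75.7 to 77.7) of those at promoters. The share rose with length. Under 500 bp 31.6% (27.9 to 35.6) of the intergenic peaks had a counterpart, at 0.5 to 1 kb 48.1% (44.4 to 51.8), at 1 to 2 kb 76.6% (73.0 to 79.8), at 2 to 4 kb 95.3% (92.8 to 97.0) and at 4 to 10 kb 210 of 210, an interval down to 98.2%. Peaks inside genes followed the same course, from 32.7% (27.5 to 38.4) to 99.3% (96.3 to 99.9). Promoter peaks were above both at up to 2 kb, with 41.7% (39.3 to 44.2) under 500 bp, and their 98.1% (97.3 to 98.7) at 2 to 4 kb was above the 95.3% of intergenic peaks. Ranked by fold enrichment in 4 groups of 610, the intergenic peaks had a counterpart in 244 of the lowest group and 569 of the highest.

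**Figure D5:**
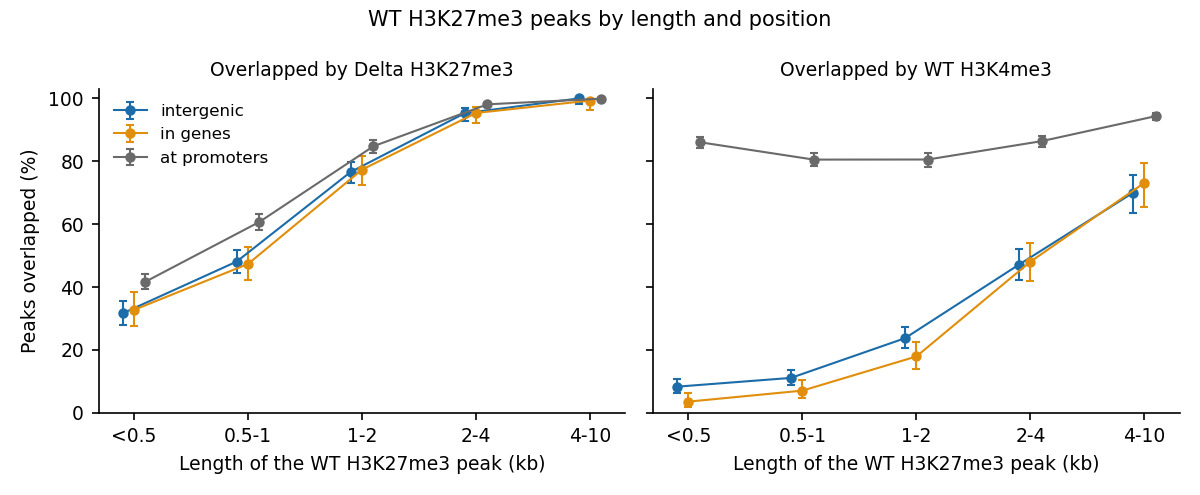
Share of WT H3K27me3 peaks overlapped by a Delta H3K27me3 peak (left) and by a WT H3K4me3 peak (right) in %, by peak length in kb and position, with 95% Wilson intervals as bars. On the left the 3 positions climb together from 31.6% to 41.7% for the shortest peaks to 99% or more for the longest. On the right promoter peaks stay above 80% while the other positions climb.

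The counterpart was itself intergenic by the rule for 1430 peaks, part of a Delta peak of 10000 bp or more for 63, at a promoter for 41, inside a gene for 14, and of 2 kinds for 2. In 1251 cases the WT and Delta peak matched 1 to 1. Their length ratio, Delta over WT, had a median of 1.04 with a middle 80% of 0.497 to 2.37, and 695 were longer in Delta. Their ratio of fold enrichment had a median of 1.05 with a middle 80% of 0.878 to 1.25, and it was higher in Delta in 806, 64.4%. Over all 7328 such pairs of the WT list the fold ratio had a median of 1.05 and was above 1 in 62.9%. The median length ratio over all these pairs was 1.01. Fold enrichment was not scaled by the *Drosophila* spike-in, so it does not give the amount of the mark.

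The 890 peaks without a counterpart were shorter and lower in fold enrichment than the rest. Their median length was 589 bp against 1524 bp for those with one, their median fold enrichment 3.22 against 3.65, and their CpG-island-like share 16.1% (13.8 to 18.6) against 57.0% (54.6 to 59.5). A Delta peak lay within 1000 bp of 169 of them and within 5000 bp of 435. The longest was 3155 bp, chr5:38285646-38288800, 69824 bp 5′ of *Msx1*, with a fold enrichment of 3.97, and 108 bp of it carried H3K4me3 in WT alone. The fourth longest, chr5:38281988-38284495, lay in the same run, and had 741 bp of H2AK119ub in WT alone. The others of the 5 longest were 2807 bp at 267219 bp from *Pard3*, a polarity gene, 2563 bp at 5171 bp from *Tmem89*, and 2471 bp at 6100 bp from *Coq10b*, a gene of coenzyme Q function. None of these 3 had another mark in any list, and their fold enrichments were 3.04 to 3.34. Of the 890, 73 had H3K4me3 in WT, and 58 of those 73 had it in Delta too.

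The share with a counterpart varied by chromosome. It was lowest on chromosomes 8 and 1, at 53.7% (46.6 to 60.7) of 188 and 53.9% (47.1 to 60.6) of 204, and ran from 58.9% to 74.3% on the other autosomes, where it was 65.2% (63.1 to 67.3) in all. For WT H3K27me3 peaks outside the set the share was 76.2% (75.2 to 77.1) on the other autosomes. It was 79.6% (76.2 to 82.6) on chromosome 1 and 72.7% (68.9 to 76.2) on chromosome 8, the lowest of any chromosome. Chromosomes 1 and 8 together had 76.3% (73.7 to 78.6). The intergenic peaks of chromosomes 1 and 8 were of nearly the same length as elsewhere, a median of 959 against 995 bp, and had a lower median fold enrichment, 3.23 against 3.46. Peaks outside the set also had a lower median fold enrichment on chromosomes 1 and 8, 3.51 against 3.89 on the other autosomes. The part of fold enrichment in the lower share was not tested.

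Applied to Delta, the rule gave 2397 intergenic peaks of 10881, with a median length of 1064 bp, a median fold enrichment of 3.58 and a median TSS distance of 22582 bp. A WT H3K27me3 peak overlapped 1461 of them, 61.0%, compared with 75.3% of all Delta H3K27me3 peaks. The 936 without one had a median length of 616 bp, a median fold enrichment of 3.35 and a CpG-island-like window in 12.5%, close to the 16.1% of the WT peaks without a counterpart, and 4.49% of them had H3K4me3 in Delta. The 5 longest of the 936 measured 2963 to 3751 bp with fold enrichments of 3.04 to 3.79, and none had another mark in any list. They lay nearest to *Srrm3*, a splicing factor gene, *Sh3gl3*, an endophilin gene, *Csmd1*, *Slc4a3*, an anion exchanger gene, and *Ncan*, which encodes the matrix proteoglycan neurocan. The 890 peaks of WT alone and the 936 of Delta alone had medians of 589 and 616 bp. Counted by the rule in each list, near *Lhx1* there were 7 intergenic peaks in WT and 12 in Delta, near *Lmx1a* 6 and 10, near *Wnt7b* 3 and 6, near *Tcfap2c* 8 and 3, near *Sox14* 4 and 0 and near *Fgf18* 3 and 0. A lower Delta count is not the same as absence of H3K27me3, because a Delta peak that is too long, reaches a gene or promoter or lies nearest to another gene is not counted. Of the 4 WT peaks near *Sox14* 2 overlapped a Delta peak, of the 8 near *Tcfap2c* 3 overlapped a Delta peak, 1 of them a peak of 13020 bp, and of the 3 near *Fgf18* none did. Each of these counts rests on 1 library per genotype.

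The other marks differed in how far they were kept at the intergenic peaks, and so did their whole lists. A Delta peak of the same mark overlapped 92.1% (91.7 to 92.5) of all WT H3K4me3 peaks and 73.5% (72.2 to 74.8) of all WT H3K27ac peaks. H3K4me3 overlapped 557 of the 2440 in Delta, 22.8% (21.2 to 24.5), compared with 64.6% of all WT H3K27me3 peaks, and 512 of the 599 with it in WT had it in both, 85.5% (82.4 to 88.1). H3K27ac overlapped 46 in Delta, 1.89% (1.42 to 2.51), compared with 17.6% of all, and 33 of the 38 with it in WT had it in both. H2AK119ub overlapped 90 in Delta, 3.69% (3.01 to 4.51), compared with 10.7% of all. It was kept at 58 of 229, 25.3% (20.1 to 31.3), absent from the Delta list at 171 and found only in Delta at 32. The H2AK119ub list itself held 4922 peaks in WT and 2388 in Delta, and 31.5% (30.2 to 32.8) of all its WT peaks had a Delta counterpart. At the 204 peaks with H2AK119ub in WT whose H3K27me3 was called in both genotypes, H2AK119ub was called in both at 58 and in WT alone at 146. The read totals of the libraries were not analysed here.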

How the data were processed

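The members and gene lists were chosen with earlier results of these data known. According to the study's methods, cells were mixed with *Drosophila* S2 cells at 2 to 1, reads were trimmed with Trim Galore, mapped to mm9 and dm3 with Bowtie and freed of duplicates with SAMtools, and broad peaks were called with MACS2 (2.0.10) at a broad cutoff of 0.05 against the input of the same genotype, without pooling. The deposited lists give each peak's position, its fold enrichment (a ratio made by the authors), the −log10 of p and q as deposited, and a score by the authors within 1 of 10 times the −log10 q, which was not used. Read depth cannot be taken from the lists, and the 2 inputs were not analysed here.

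Coordinates are 1-based on mm9 (NCBIM37). Genes and TSSs of 22359 coding genes came from GENCODE M1. An overlap of at least 1 bp counted. Shares have 95% Wilson intervals, which ignore that neighbouring peaks are not independent. Territory points are single bases while peaks are measured from their edge, which shortens peak distances slightly. Named regions were the 5 longest, the 5 of highest fold enrichment, the 5 longest without a Delta peak, the longest with all 3 other marks (0 found), the 3 farthest from a TSS and the 5 longest of Delta without a WT peak. Named genes were those nearest to them, the 8 with most members and up to 3 per list. All but 1 gene of the blood list and 1 of the neural list were found. Overlap and distance code was tested on simulated data, and the number of members was checked with bedtools (2.31.1). Python (3.11.15), NumPy (2.4.6), pandas (2.3.3) and matplotlib (3.10.9) were used. The 7 alternatives concerned thresholds, joining, overlap, TSS distance, gene biotypes and chromosomes 1 and 8.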

Additional observations from a re-analysis of the deposited data

How the results depend on the processing

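Of 53 values under 7 alternatives, 27 stayed within the interval of the reported share or within 1.5 times the reported number, and 26 moved. No paired analysis was possible because every mark had a single library in each genotype. With a −log10 q of at least 3 in every list, 892 intergenic peaks were left in WT and 1023 in Delta. Of the 892, 76.8% had a Delta counterpart, 41.6% H3K4me3, 0.224% H2AK119ub, 0.785% H3K27ac and 44.3% a coding TSS within 25 kb, and 66.4% of the 1023 had a WT counterpart. H2AK119ub falls by the construction of this limit, as few of its peaks pass it. When 50% or more of a peak had to be covered, the shares were 52.9% for a Delta counterpart, 5.61% for H3K4me3, 1.31% for H2AK119ub, 0.902% for H3K27ac and 48.4% for a WT counterpart. Joining peaks up to 3000 bp apart gave 31.0% with H3K4me3, 2.17% with H3K27ac, 48.2% within 25 kb and 64.8% of Delta peaks with a WT counterpart. Requiring more than 10 kb to a TSS gave 65.6% with a Delta counterpart, 28.6% with H3K4me3, by construction 36.9% within 25 kb, and 63.1% of Delta peaks with a WT counterpart. With genes of every biotype defining intergenic, 61.4% had a Delta counterpart, 20.7% H3K4me3 and 0.784% H3K27ac, and the WT counterpart share of Delta peaks was 58.4%. Without chromosomes 1 and 8 the last share was 63.0%, and the other 7 results did not move. A fold enrichment of at least 3 moved no value. Elsewhere the cause was not tested. The 219-bp lower limit of length and 1 library per group limit every comparison of short or weak peaks. Read totals, which the study's methods list for each library, were not used here, so no value is given per read.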

Other observations

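Chromosome X held 32 intergenic peaks, 0.278 per Mb of its intergenic territory, against 0.742 to 3.13 per Mb on single autosomes. It held few H3K27me3 peaks of any position, 161 in WT. The intergenic peaks were 19.9% of these, within the 14.5% to 25.9% on single autosomes. None of the 32 had H2AK119ub in WT, compared with 9.39% of all intergenic peaks, but 32 peaks are too few to read a difference from this. A Delta counterpart was found for 24 of the 32, compared with 63.5% of all intergenic peaks.

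Outside the rule, 38 intergenic peaks in WT and 44 in Delta were 10000 bp or longer, and 466 in WT and 479 in Delta lay outside coding gene bodies but within 2.5 kb of a coding TSS.

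The share of intergenic peaks with WT H3K4me3 was lowest, 14.5%, where another H3K27me3 peak lay within 5 kb, then 25.9% (22.5 to 29.7) at 5 to 25 kb, 33.6% (29.4 to 38.1) at 25 to 100 kb and 41.5% beyond. Their median lengths lay between 952 and 1059 bp, and their CpG-island-like shares 30.1%, 45.6%, 57.1% and 53.7%. The part of CG content in this order was not tested.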
